A study of Mus musculus with 6 samples.

Results

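The nuclear genes of the 5 oxidative phosphorylation complexes were examined in epididymal white adipose tissue (eWAT), a visceral fat depot, of 3 Jmjd8-KO and 3 wild-type (WT) mice. Genes were taken by symbol, namely those that start with Nduf, Uqcr, Cox4, Cox5, Cox6, Cox7, Cox8 or Atp5, with Sdha to Sdhd and Cyc1. This gave 94 of the 24539 genes listed. They comprised 36 subunits and 9 assembly factors of complex I, 4 genes of complex II, 9 of complex III, 20 of complex IV and 16 of complex V. A symbol does not always follow the protein's place. Ndufa4 and its paralog Ndufa4l2 were therefore counted with complex IV, where the Ndufa4 protein is found. Atp5sl, also called Dmac2, was counted with the assembly factors of complex I. Atp5s, coupling factor B, was kept with complex V although it is not a subunit of the isolated enzyme. Subunits encoded by mitochondrial DNA have other symbols and were not analysed here.

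All 6 mice were C57BL/6, were kept on a high-fat diet (HFD) and had no further treatment, so that genotype was the difference between the groups named by the labels. Every sample came from a different mouse. The nature of the Jmjd8 allele, the cells in which it is lost, the age of the mice and the duration of feeding were not given in the sources used here.

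Complex I takes electrons from NADH and complex II takes them from succinate, and both pass them to ubiquinone. Complex III moves them on to cytochrome c, and complex IV hands them to oxygen. Complexes I, III and IV pump protons out of the mitochondrial matrix, and complex V, the ATP synthase, lets them back in to make ATP. White adipocytes hold fewer mitochondria than brown ones, in which Ucp1 lets protons return without making ATP.

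Libraries held 17598696 to 20598473 counts on genes. Levels are given as counts scaled to library size (CPM), and levels of different genes are compared in the deposited RPKM, which also allow for gene length. Differences were tested with edgeR's quasi-likelihood test over all 14322 genes that passed a filter on low counts, and a gene is said to have risen or fallen at an adjusted p under 0.05. Jmjd8 fell in the Jmjd8-KO mice, from 111–116 CPM in WT to 39.4, 57.7 and 42.3 CPM (log2 fold change -1.28, adjusted p = 0.0193, SE 0.144). Jmjd8-KO replicate 2 stood apart from its group: it had the highest value of the 6 mice in 32% of tested genes and the lowest in 33.9%, against 10.7% to 21.3% for the other libraries. WT replicate 1 held transcripts of neurons and glia, with a summed level of 1465 CPM over 12 marker genes against 69.2–92.7 CPM elsewhere. Markers of adipocytes were abundant in each mouse, at 18862 to 23834 CPM over 8 genes. Fold changes that rest on Jmjd8-KO replicate 2 are given with and without that library.

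Between the genotypes, a single respiratory gene passed the test, an isoform gene of low abundance. Of the 94 genes, 91 passed the filter. Cox7b2 and Cox8c, testis isoforms, had no count in any library, and Atp5g2, a gene for the c ring of ATP synthase, had 20 counts in all. Of the 91 tested, 0 rose and 1 fell, where 0.789% of all tested genes rose and 1.33% fell, 2.12% together. The gene that fell was Cox6a2, the heart and muscle isoform of a complex IV subunit. The same count, 0 higher and 1 lower, came from DESeq2, which called 7.25% of all genes, from limma-voom with quality weights (14.2%), from limma on log2(RPKM + 0.1) (2.44%), from scaling by library size alone (2.6%) and from a minimum count of 50 (3.36%). Without a filter on low counts, where 0.816% of all genes were called, no member was called. With any mouse other than Jmjd8-KO replicate 2 left out, 0 to 17 genes of the whole table were called, so that most calls made with all 6 mice were lost without any one of those 5. At an unadjusted p under 0.05 there were 2 members, Cox6a2 and Sdha, the flavoprotein of complex II, against 19.1% of all genes.

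Small differences leaned upward when all 6 mice were used, and this lean rested on Jmjd8-KO replicate 2. With all mice, 63 of 91 members had a positive log2 fold change, where 49.1% of all tested genes did. Without that library the number was 33 of 91, where 46.4% of all genes did. It was 50 when libraries were scaled by size alone, 64 with DESeq2 and 40 with limma-voom, which gives libraries unequal weight. The median log2 fold change was 0.14 for complex I subunits, 0.26 for complex II, 0.14 for complex III, 0.08 for complex IV and 0.02 for complex V, against -0.01 over all tested genes. Assembly factors of complex I had a median of -0.02. Without Jmjd8-KO replicate 2 the same medians were -0.01, 0.08, 0.03, -0.04 and -0.03, with -0.12 for the assembly factors and -0.02 over all genes. The groups did not overlap for 15 of 91 members, against 29.5% of all tested genes.

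**Figure D1:**
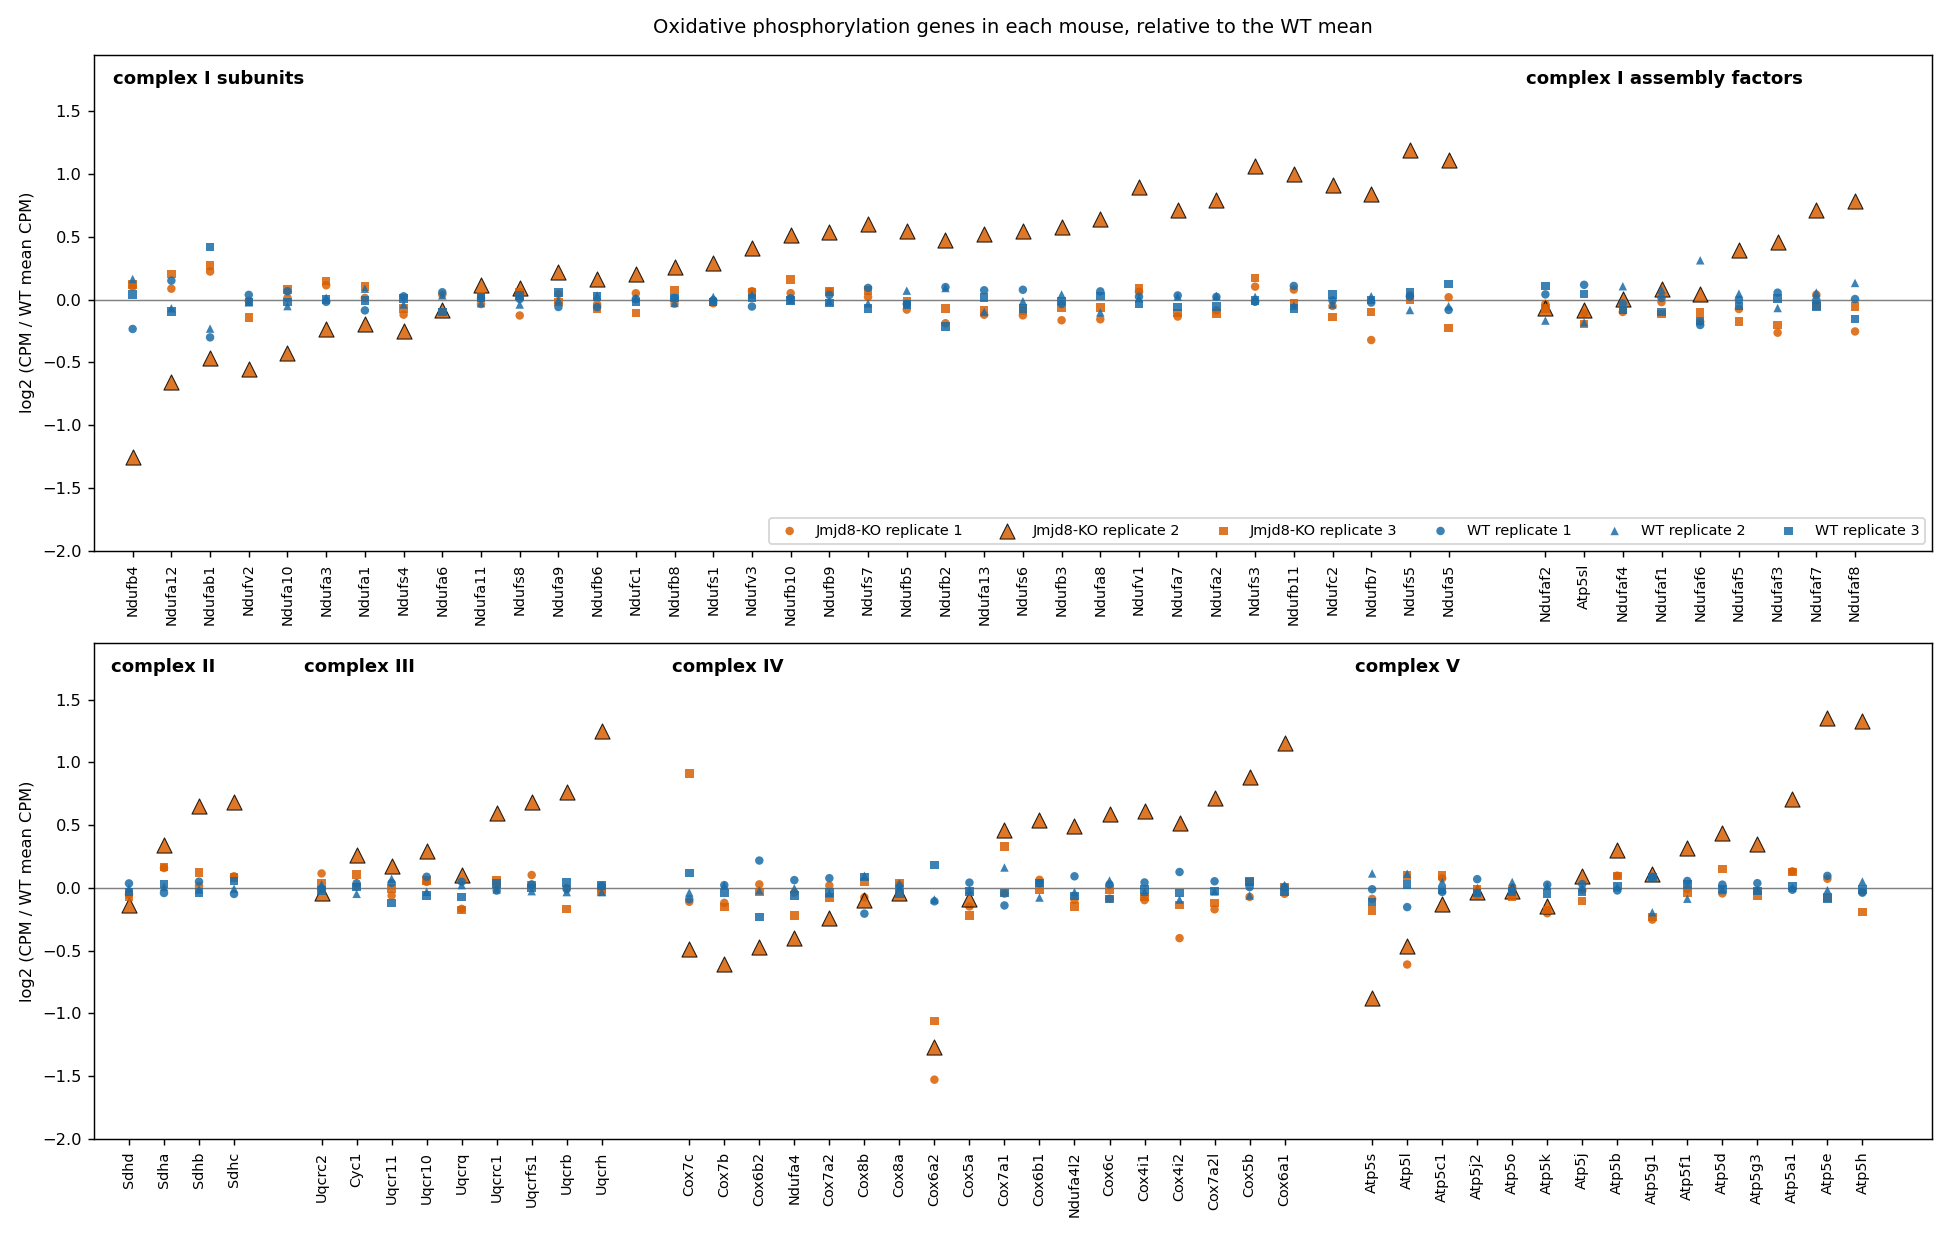
Level of 90 of the 91 tested oxidative phosphorylation genes in each mouse, as log2 of the CPM over the mean CPM of the 3 WT mice, ordered within each complex by the ratio of Jmjd8-KO replicate 2 to the mean of the other Jmjd8-KO mice. Jmjd8-KO replicate 2 (large outlined triangles) lies above or below the other 5 mice for most genes, and Cox6a2 is the gene at which all 3 Jmjd8-KO mice lie far below the 3 WT mice.

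With Jmjd8-KO replicate 2 left out, 0 members rose and 1 fell, again Cox6a2, where 4.52% of all tested genes rose and 4.82% fell, 9.34% together. At an unadjusted p under 0.05 there were 12 of 91, against 27% of all genes. Of these, Ndufs3, Ndufa3, Sdha and Atp5a1 were the 4 with a higher mean in Jmjd8-KO. The other 8 had a lower mean: Ndufb7, Ndufaf3, Uqcrq, Cox5a, Cox6a2, Cox7a2l, Cox7b and Atp5k. Apart from Cox6a2, the log2 fold changes of these 12 lay between -0.23 and 0.16. With WT replicate 1 left out as well, 10.1% of all tested genes rose and 9.72% fell, 19.8% together, and among the members 0 rose and 2 fell, Cox6a2 and Ndufb7. Ndufb7, a membrane arm subunit of complex I, had 43.5, 97.6 and 50.8 CPM in Jmjd8-KO and 53.5, 55.4 and 54.2 CPM in WT. It was lowest in Jmjd8-KO replicates 1 and 3 and highest in replicate 2. Its log2 fold change was 0.24 with all mice (adjusted p = 0.668, SE 0.283), -0.20 without Jmjd8-KO replicate 2 (adjusted p = 0.139) and -0.22 without both libraries (adjusted p = 0.0221).

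**Figure D2:**
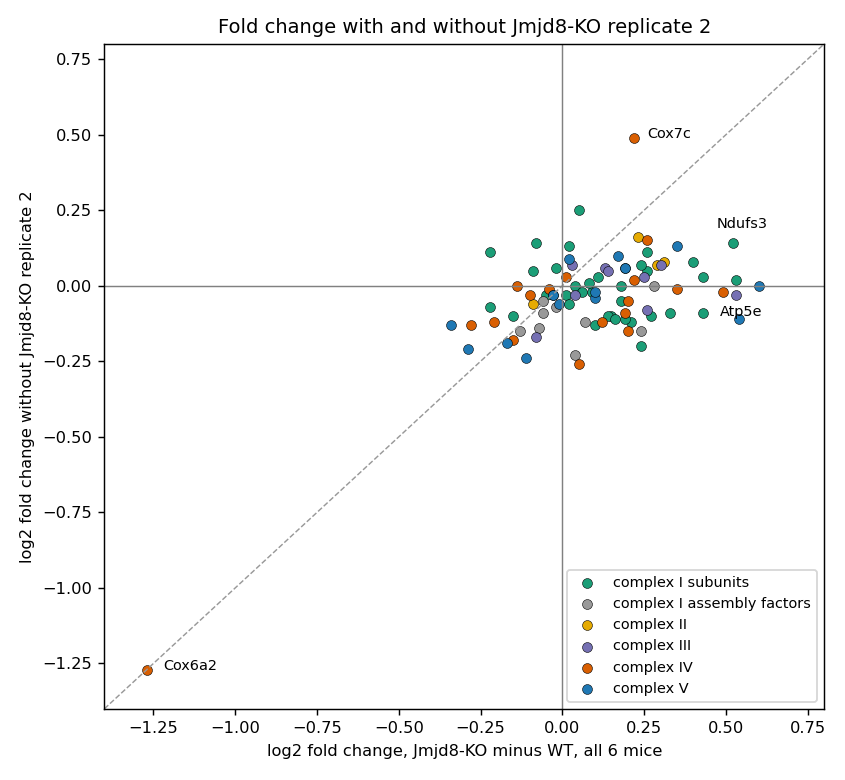
Log2 fold change (Jmjd8-KO minus WT) of the 91 tested members with all 6 mice (horizontal) and without Jmjd8-KO replicate 2 (vertical), coloured by complex, with the line of equality dashed. The points spread along the horizontal axis and lie close to 0 on the vertical axis, apart from Cox6a2 at -1.27 on both and Cox7c at 0.49 on the vertical axis.

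In the 5 mice other than Jmjd8-KO replicate 2 the levels were close to equal, whatever the genotype. Among the 76 members with a mean of at least 10 CPM, the highest of these 5 values was within 1.2-fold of the lowest for 69, or 90.8%, where this held for 53.3% of all 9717 genes at that level. The median ratio of highest to lowest was 1.11 for the members and 1.19 for all genes. Members and all genes were not matched for level above 10 CPM. The 5 mice include WT replicate 1, with its transcripts of neurons and glia. With all 6 mice 0 of the 76 passed the test, against 2.64% of all genes at that level. Without Jmjd8-KO replicate 2, 0 of the 76 had a log2 fold change beyond 0.25 in size and 0 passed the test, against 20.8% and 12.5% of all genes. Without WT replicate 1 as well, Ndufb7 passed, 1 of the 76, against 23.9%. The median SE was 0.136 for the 76 and 0.112 for all genes with all 6 mice. It was 0.0552 and 0.0719 without Jmjd8-KO replicate 2, and 0.066 and 0.0741 without both libraries. The bounds of 1.2-fold and 0.25 were chosen after the values were seen.

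Jmjd8-KO replicate 2 lay outside the range of the other 5 mice for 68 of the 76 members (89.5%), above it for 56 and below it for 12. Among all genes at that level it lay outside for 71%, with 3468 above and 3435 below. It differed by more than 1.5-fold from the mean of Jmjd8-KO replicates 1 and 3 for 30 members (39.5%), against 13.5% of all genes. Over all 91 tested members it was the highest of the 6 mice for 61 and the lowest for 17. It was at least 1.5-fold above the mean of the other Jmjd8-KO mice for 31 of the 91 and at least 1.5-fold below it for 5, against 9.28% and 9.2% of all tested genes. Summed over the members of a complex, its level was 1.37-fold the mean of the other Jmjd8-KO mice for complex I subunits, 1.25-fold for complex II, 1.36-fold for complex III, 1.37-fold for complex IV and 1.26-fold for complex V. The sums of the other 2 Jmjd8-KO mice stood at 0.993, 1.07, 1.01, 0.969 and 1.05 times the WT mean, in the same order. Counts on the 94 genes made up 0.958% of its library and 0.735% to 0.774% of the other 5.

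**Figure D3:**
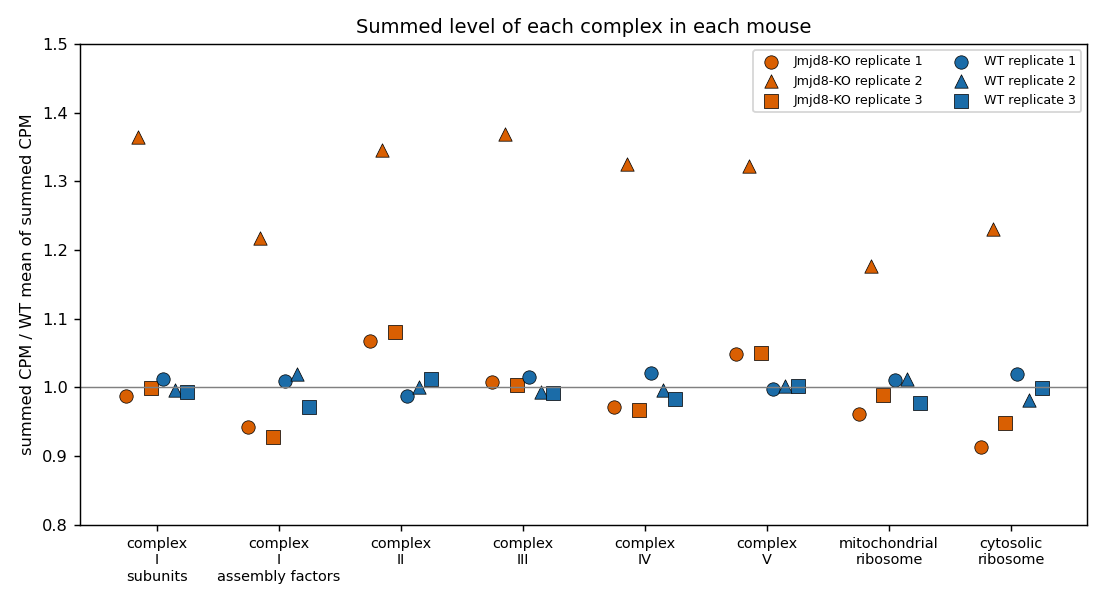
Summed CPM of each complex, and of the mitochondrial and cytosolic ribosomal protein genes, in each mouse, divided by the mean of the 3 WT mice (the axis starts at 0.8). Jmjd8-KO replicate 2 is the highest point in every column, while the other 5 mice stay between 0.9 and 1.1.

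The same library was also high for ribosomal protein genes. Its summed level was 1.21-fold the mean of Jmjd8-KO replicates 1 and 3 for mitochondrial ribosomal proteins and 1.32-fold for cytosolic ribosomal proteins. Across the 76 members, its departure from those 2 mice had a Spearman correlation of 0.21 with the GC content of the transcript and -0.17 with its length. Across 9468 genes at that level the values were 0.37 and -0.24. These points are genes of the same libraries and are no replicates, and the part of base composition or length in the departures was not tested. In whole tissue, a change in the number of cells of a type and a change in RNA per cell cannot be told apart.

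The departures differed widely between subunits of the same complex. The largest was that of Atp5h, the d subunit of the stalk of ATP synthase, with 23.7, 60.9 and 21.2 CPM in Jmjd8-KO and 23.6, 25.1 and 24.0 CPM in WT. Jmjd8-KO replicate 2 stood at 2.72-fold the mean of the other Jmjd8-KO mice, which overlapped with WT. The corresponding ratio was 2.56 for Atp5e, 2.42 for Uqcrh, 2.31 for Ndufa5, 2.26 for Ndufs5 and for Cox6a1, and 2.01 for Ndufc2. In the other direction it was 0.571 for Ndufa12, 0.716 for Ndufv2 and 0.723 for Cox7b. It was 0.388 for Ndufb4, which had 29 counts in replicate 2. For Cox7c it was 0.508, with 4.38, 3.37 and 8.89 CPM in Jmjd8-KO, so that a high replicate 3 lowered the ratio. The levels of Ndufb4 and Cox7c are uncertain, as described below with the pseudogenes. Ndufa12, an accessory subunit of the NADH-oxidising module, had 17.6, 10.5 and 19.1 CPM in Jmjd8-KO and 18.4, 15.8 and 15.5 CPM in WT, so that Jmjd8-KO replicate 2 was the lowest mouse and the others overlapped.

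NRF1, GABP, YY1 and the estrogen-related receptors (ERR) are known activators of respiratory genes, and the members' promoters were searched for their motifs. RefSeq promoter sequences (GRCm38.p6, 250 bases before to 50 after the start) were matched for 77 of the 94 members, which have 83 promoters. The motifs, sought on both strands, were GCGCANGCG for NRF1, CCGGAAG for GABP and other ETS factors, AANATGGCG for YY1 and TCAAGGTCA for ERR, and each was counted on its own where matches overlapped. At least 1 of them was present in 54.2% of the members' promoters and in 15.8% of all 32851 promoters. The NRF1 motif was in 27.7% of the members' promoters against 6.25% of all, GABP in 21.7% against 8.86%, YY1 in 15.7% against 2.38% and ERR in 2.41% against 0.423%. Among members with a WT mean of at least 10 CPM, 13 of 25 promoters held a motif where Jmjd8-KO replicate 2 was 1.5-fold or more above the mean of the other Jmjd8-KO mice, and 27 of 43 did where it was within 1.5-fold. A match is a string of letters and no measure of binding. The comparison was with all promoters, not matched for base composition or for expression in this fat.

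The promoters of the genes with the highest ratios, Atp5h and Atp5e, and of the 2 with the lowest, Ndufa12 and Ndufv2, among members with a WT mean of at least 10 CPM and a promoter in the table, are shown 5′ to 3′, with matches to the motifs in capitals. That of Atp5h holds an NRF1 and a GABP match, that of Atp5e a GABP match, and the other 2 hold none of the 4 motifs. These promoters were picked by ratio and do not stand for the rest, where 13 of 25 high and 27 of 43 within 1.5-fold held a motif. Ndufb4, lower in ratio but under 10 CPM, had 3 NRF1 matches. Ndufc2, Cox5b and Cox7a2l, all high in Jmjd8-KO replicate 2, had none of the motifs.
Atp5h, chr11:115419870-115420169, minus strand: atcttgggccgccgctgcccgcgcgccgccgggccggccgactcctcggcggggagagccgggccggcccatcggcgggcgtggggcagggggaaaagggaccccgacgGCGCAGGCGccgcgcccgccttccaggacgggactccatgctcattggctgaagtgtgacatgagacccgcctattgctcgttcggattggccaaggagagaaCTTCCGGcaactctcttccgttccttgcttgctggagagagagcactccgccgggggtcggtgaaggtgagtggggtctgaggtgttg
Atp5e, chr2:174464052-174464351, minus strand: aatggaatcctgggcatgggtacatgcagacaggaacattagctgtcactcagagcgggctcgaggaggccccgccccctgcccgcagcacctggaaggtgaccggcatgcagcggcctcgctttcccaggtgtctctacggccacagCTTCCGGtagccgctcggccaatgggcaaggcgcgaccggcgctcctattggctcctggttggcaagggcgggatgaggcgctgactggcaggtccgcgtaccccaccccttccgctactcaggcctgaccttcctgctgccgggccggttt
Ndufa12, chr10:94198785-94199084, plus strand: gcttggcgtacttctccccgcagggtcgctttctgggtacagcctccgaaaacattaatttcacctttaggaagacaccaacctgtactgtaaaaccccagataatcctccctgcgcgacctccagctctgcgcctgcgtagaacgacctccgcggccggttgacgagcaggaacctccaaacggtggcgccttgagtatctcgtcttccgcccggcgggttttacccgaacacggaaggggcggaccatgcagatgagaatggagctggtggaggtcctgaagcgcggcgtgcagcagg
Ndufv2, chr17:66101510-66101809, minus strand: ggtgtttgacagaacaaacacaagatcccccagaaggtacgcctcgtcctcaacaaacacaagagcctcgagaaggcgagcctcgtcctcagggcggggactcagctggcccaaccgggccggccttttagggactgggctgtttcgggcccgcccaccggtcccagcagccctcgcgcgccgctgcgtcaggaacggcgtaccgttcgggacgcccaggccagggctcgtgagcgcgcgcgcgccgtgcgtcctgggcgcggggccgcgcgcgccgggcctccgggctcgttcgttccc

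Complex I has 7 nuclear core subunits, which carry the flavin and the iron-sulfur clusters from NADH to ubiquinone. None of the 7 passed the test with all mice, and the median log2 fold change was 0.18, or 0.00 without Jmjd8-KO replicate 2. Ndufs3, a core subunit of the ubiquinone module, had 39.9, 77.6 and 41.8 CPM in Jmjd8-KO and 36.7, 37.7 and 37.0 CPM in WT. All 3 Jmjd8-KO values lay above all WT values, with replicate 2 far above. Its log2 fold change was 0.52 (adjusted p = 0.308, SE 0.25), and 0.14 without that library (adjusted p = 0.172, SE 0.0553). Ndufv1, which binds NADH, had 93.8, 167 and 95.6 CPM against 91.3, 90.5 and 87.6 CPM. The groups again did not overlap, and the log2 fold change was 0.40 (adjusted p = 0.36, SE 0.22), or 0.08 without Jmjd8-KO replicate 2 (adjusted p = 0.303).

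Ndufv2, the partner of Ndufv1 in the same module, had its low value where Ndufv1 had its high one. Its levels were 81.5, 55.8 and 74.4 CPM in Jmjd8-KO and 84.2, 80.8 and 81.0 CPM in WT (log2 fold change -0.22, adjusted p = 0.422, SE 0.137, and -0.07 without Jmjd8-KO replicate 2). The core subunits Ndufs1, Ndufs7 and Ndufs8 had log2 fold changes of 0.09, 0.26 and 0.01, and of -0.02, 0.05 and -0.03 without Jmjd8-KO replicate 2.

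Among the 29 accessory subunits, which surround the core, 0 passed the test, and log2 fold changes ran from -0.22 for Ndufb4 to 0.53 for Ndufs5 (0.11 and 0.02 without Jmjd8-KO replicate 2). Ndufs5, a membrane arm subunit, had 12.9, 28.8 and 12.6 CPM in Jmjd8-KO and 12.8, 11.9 and 13.1 CPM in WT. Jmjd8-KO replicate 2 was far above 5 mice that overlapped, and the fit without that mouse gave 0.02 on the log2 scale (adjusted p = 0.913, SE 0.0843). Ndufb10, also of the membrane arm, had 60.3, 82.9 and 65.0 CPM against 58.6, 58.0 and 57.9 CPM, with no overlap (log2 fold change 0.26, adjusted p = 0.306, SE 0.123, and 0.11 without Jmjd8-KO replicate 2). Ndufa3 had 48.0, 37.7 and 49.2 CPM against 43.8, 44.8 and 44.4 CPM, with Jmjd8-KO replicate 2 as the lowest mouse and the other 2 Jmjd8-KO mice as the highest. Its log2 fold change was 0.02, or 0.13 without that library (adjusted p = 0.142, SE 0.0483). Levels per length ran from 3.5 RPKM for Ndufab1, the mitochondrial acyl carrier protein, to 140 RPKM for Ndufb9.

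The 9 assembly factors of complex I help build the enzyme and are not part of it. None passed the test. They were less abundant than most subunits, at 2.02 RPKM for Ndufaf5 to 15.7 RPKM for Ndufaf8. Ndufaf8, which works with Ndufaf5, had 6.48, 13.3 and 7.44 CPM in Jmjd8-KO and 7.75, 8.47 and 6.95 CPM in WT. Jmjd8-KO replicate 2 was the highest of the 6 and the rest overlapped (log2 fold change 0.24, adjusted p = 0.663, SE 0.276, and -0.15 without that mouse). Ndufaf7, a methyltransferase, differed by 0.28 on the log2 scale (adjusted p = 0.488, SE 0.204), and by 0.00 without that mouse. Without Jmjd8-KO replicate 2, 0 of the 9 had a log2 fold change above 0, and the lowest was -0.23 for Ndufaf3 (adjusted p = 0.166, SE 0.09). Ndufaf4, which acts early in assembly, was at -0.06 with all mice and -0.09 without that library.

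Complex II, also the succinate dehydrogenase of the citric acid cycle, consists of 4 nuclear-encoded proteins. Sdha, which oxidises succinate, had 334, 380 and 336 CPM in Jmjd8-KO and 291, 301 and 306 CPM in WT. Every Jmjd8-KO mouse was above every WT mouse, with or without replicate 2. The log2 fold change was 0.23 (adjusted p = 0.192 by edgeR's quasi-likelihood test, SE 0.0793), and 0.16 without Jmjd8-KO replicate 2 (adjusted p = 0.0746, SE 0.0441).

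Sdhb, the iron-sulfur subunit of complex II, had 92.5, 144 and 99.6 CPM against 94.7, 90.7 and 89.1 CPM, with overlap between the groups. Sdhc, a membrane anchor, had 151, 228 and 150 CPM against 137, 141 and 147 CPM, without overlap. Their log2 fold changes were 0.29 (adjusted p = 0.372, SE 0.163) and 0.31 (adjusted p = 0.351, SE 0.167), and 0.07 and 0.08 without Jmjd8-KO replicate 2. Sdhd, the other anchor, lay the other way, with 78.5, 74.1 and 77.4 CPM in Jmjd8-KO against 83.4, 81.2 and 79.5 CPM in WT and no overlap (log2 fold change -0.09, adjusted p = 0.502, SE 0.0657, and -0.06 without replicate 2). Adipocyte marker genes were also higher in Jmjd8-KO for 7 of 8, of which 1 rose, where 49.1% of all tested genes were higher and 0.789% rose. Without Jmjd8-KO replicate 2, 6 of the 8 were higher and 4 rose, where 46.4% and 4.52% of all tested genes did. The summed level of these markers was 20699–23834 CPM in Jmjd8-KO against 18862–20021 CPM in WT. Their part in the values of complex II was not tested.

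In complex III, 0 of 9 genes passed the test. Cyc1, cytochrome c1, had 91.5, 109 and 97.8 CPM in Jmjd8-KO and 93.1, 87.8 and 91.3 CPM in WT (log2 fold change 0.13, adjusted p = 0.429, SE 0.0841, and 0.06 without Jmjd8-KO replicate 2). Uqcrfs1, the Rieske iron-sulfur protein, had 91.5, 137 and 86.7 CPM against 86.9, 83.7 and 85.1 CPM (log2 fold change 0.30, adjusted p = 0.377, SE 0.171, and 0.07 without it). For both genes the groups overlapped at a Jmjd8-KO mouse other than replicate 2. Uqcrh, the hinge protein that contacts cytochrome c1, had the highest log2 fold change of the complex, 0.53 (adjusted p = 0.424, SE 0.339), which was -0.03 without Jmjd8-KO replicate 2. Its levels were 60.5, 146 and 60.3 CPM against 62.2, 60.1 and 62.3 CPM, so that 5 mice lay within 1.04-fold of each other.

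Uqcrq, a small subunit of complex III, had 94.7, 114 and 94.0 CPM in Jmjd8-KO and 110, 108 and 101 CPM in WT. Jmjd8-KO replicates 1 and 3 were the lowest mice and replicate 2 the highest, so that the groups overlapped. Its log2 fold change was -0.08 with all mice (adjusted p = 0.68, SE 0.0958) and -0.17 without replicate 2 (adjusted p = 0.0916, SE 0.0511). The large proteins Uqcrc1 and Uqcrc2 had log2 fold changes of 0.25 and 0.03, and of 0.03 and 0.07 without that library. Uqcrb, a small subunit, had 26.1, 44.4 and 23.2 CPM in Jmjd8-KO and 25.9, 25.5 and 26.9 CPM in WT, with replicate 2 again the highest (0.26 on the log2 scale, and -0.08 without it).

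Complex IV, cytochrome c oxidase, has nuclear subunits that come as a general form and a form of certain tissues. Among the general forms, Cox8a and Cox6a1 were the most abundant per length, at 458 and 388 RPKM. Cox8a had 274, 262 and 276 CPM in Jmjd8-KO and 270, 276 and 261 CPM in WT, with the groups across the same range (0.01 on the log2 scale, SE 0.0667, and 0.03 without Jmjd8-KO replicate 2). Cox6a1 had 181, 417 and 188 CPM against 188, 190 and 183 CPM. Apart from Jmjd8-KO replicate 2, all its values lay within 1.05-fold of each other, and the log2 fold change was 0.49 (adjusted p = 0.428, SE 0.311), and -0.02 without that mouse.

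Cox4i1, which binds ATP and regulates the enzyme, had 215, 352 and 219 CPM against 237, 225 and 228 CPM. Jmjd8-KO replicates 1 and 3 were a little below WT and replicate 2 far above (log2 fold change 0.19, or -0.09 without it). Cox5a, on the matrix side, had 61.1, 63.8 and 58.2 CPM against 69.7, 67.0 and 66.4 CPM. All 3 Jmjd8-KO mice were below all WT mice, replicate 2 included. Its log2 fold change was -0.15 (adjusted p = 0.299, SE 0.0701), and -0.18 without replicate 2 (adjusted p = 0.0725, SE 0.0489). Cox7b, a small membrane subunit, had 66.0, 47.2 and 64.6 CPM against 72.8, 72.7 and 69.6 CPM, also without overlap (log2 fold change -0.28, adjusted p = 0.305, SE 0.131, and -0.13 without replicate 2). Cox7a2l, described as a supercomplex factor of complexes III and IV, had a log2 fold change of 0.20 and of -0.15 without replicate 2 (adjusted p = 0.156, SE 0.0555). Whether it has that role in these mice was not examined. Cox5b, Cox6c and Cox6b1 had log2 fold changes of 0.35, 0.20 and 0.22, and of -0.01, -0.05 and 0.02 without it.

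The tissue forms were minor in this fat. Measured in RPKM, Cox8b, the heart, muscle and brown fat form, made up 4.19% to 5.24% of Cox8a and Cox8b together, and Cox7a1 made up 5.29% to 9.55% of Cox7a1 and Cox7a2. Cox4i2, the lung form that responds to oxygen, made up 1.42% to 1.85% of its pair, and the testis form Cox6b2 0.312% to 0.71%. The genotypes overlapped for Cox8b, Cox7a1, Cox6b2 and Ndufa4l2. For Cox4i2 they did not overlap but nearly met, with 1.67% as the highest Jmjd8-KO share and 1.68% as the lowest WT share. These shares rest on 56 to 111 counts of Cox4i2 per library. Group means were 1.58% (SD 0.135) for Jmjd8-KO against 1.74% (SD 0.0893) for WT, n = 3 each. The level of Cox4i2 itself overlapped, at 2.95–5.58 CPM for Jmjd8-KO against 3.65–4.25 CPM for WT. Its log2 fold change was 0.05 (adjusted p = 0.926, SE 0.262), or -0.26 without Jmjd8-KO replicate 2. Cox6a2 made up 0.444% ± 0.19 of its pair in Jmjd8-KO and 1.29% ± 0.173 in WT (SD, n = 3 each).

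Cox6a2 had 1.05, 1.26 and 1.45 CPM in Jmjd8-KO and 2.81, 2.84 and 3.43 CPM in WT. The 3 Jmjd8-KO mice were all below the 3 WT mice, and Jmjd8-KO replicate 2 lay between the others of its group. The log2 fold change was -1.27 (adjusted p = 0.0413, SE 0.216), and -1.27 without replicate 2 (adjusted p = 0.0274, SE 0.235). The call was lost when any other mouse was left out, with adjusted p-values from 0.0943 (WT replicate 1 left out) to 0.195 (WT replicate 3 left out). Over all 14 alternatives the adjusted p ran from 9.2e-05 to 0.195. The call was made in 7 of them, at an adjusted p of up to 0.0337.

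Cox6a2 lies within another gene. On GRCm38 it spans chr7:128205435-128206387 on the minus strand, inside Itgad at chr7:128154376-128223816 on the plus strand, with Itgax upstream at chr7:128129547-128150657. Itgad and Itgax encode integrin alpha chains of myeloid cells. Exons of an Itgad transcript cover at most 70 of the 680 exon bases of Cox6a2. The strand setting of the counts was not given in the sources used here, and without strand the reads of Cox6a2 and Itgad cannot be told apart in that stretch or where unspliced Itgad RNA was counted. Itgad had 18.9, 22.9 and 17.0 CPM in Jmjd8-KO and 42.8, 37.6 and 42.5 CPM in WT, and fell (log2 fold change -1.06, adjusted p = 0.0214, SE 0.129). Itgax fell as well, from 135 ± 14 to 72.1 ± 8.29 CPM (SD, n = 3 each; log2 fold change -0.90, adjusted p = 0.0236). Of 8 macrophage markers, all tested, 4 fell, with a summed level of 1963–2387 CPM in Jmjd8-KO against 2977–3083 CPM in WT, and none was at 0. Of 8 skeletal and heart muscle markers only 2 passed the filter on low counts, of which 0 fell. Their summed level was 26.2–41.6 CPM in Jmjd8-KO against 43.4–50.9 CPM in WT, most of it from Acta1, skeletal muscle actin, which had 33.9, 24.1 and 40.2 against 42.3, 49.5 and 47.6 CPM, without overlap (log2 fold change -0.51, adjusted p = 0.197, SE 0.181, and -0.33 without Jmjd8-KO replicate 2). Mylpf, the other tested muscle marker, lay the other way at a low level, with 0.422, 0.805 and 0.814 against 0.346, 0.507 and 0.504 CPM. Its log2 fold change was 0.58 (adjusted p = 0.424, SE 0.368), and 0.44 without Jmjd8-KO replicate 2. Myh6 was at 0 in every mouse and Ckm at or below 0.158 CPM. The part of these cells in the value of Cox6a2 was not tested.

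**Figure D4:**
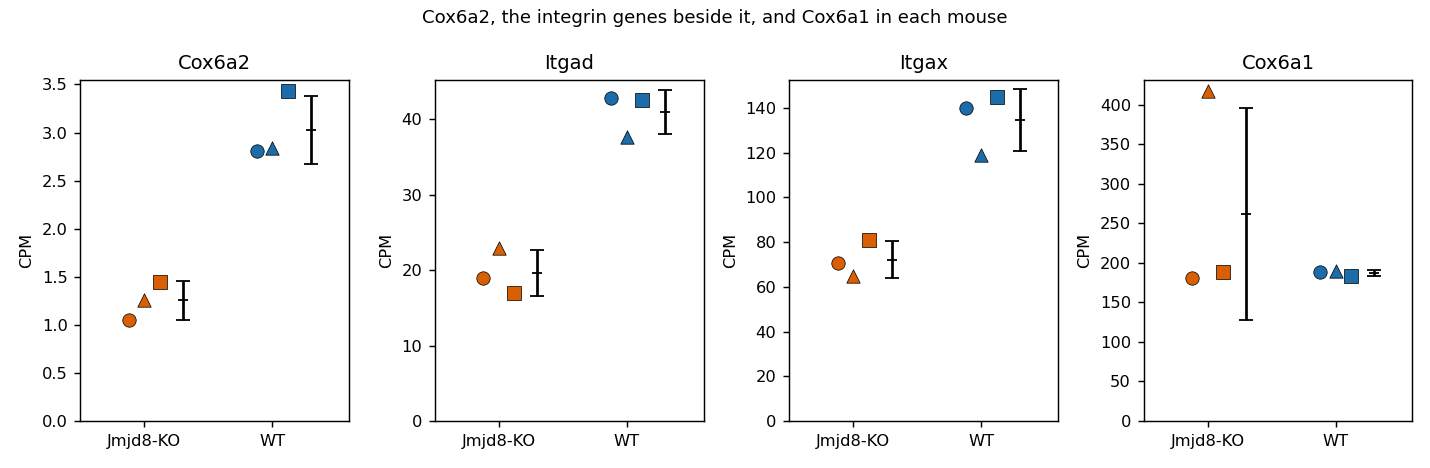
CPM of Cox6a2, of Itgad (the gene that contains it on the opposite strand), of Itgax and of the general isoform Cox6a1 in each mouse, with circles, triangles and squares for replicates 1, 2 and 3 and bars for the mean ± SD of each group. Cox6a2, Itgad and Itgax are lower in all 3 Jmjd8-KO mice than in any WT mouse, whereas for Cox6a1 5 mice are level and Jmjd8-KO replicate 2 is at 417 CPM.

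In complex V, 0 of 15 tested genes passed the test. Atp5b, the catalytic beta subunit, was the most abundant member per length, at 541 RPKM. Its levels were 1109, 1280 and 1108 CPM in Jmjd8-KO and 1022, 1040 and 1048 CPM in WT, and those of Atp5a1, the alpha subunit, 714, 1062 and 712 against 645, 652 and 658 CPM. For both subunits of the F1 head all Jmjd8-KO mice were above all WT mice, with replicate 2 the highest. Atp5b differed by 0.17 on the log2 scale (adjusted p = 0.32, SE 0.0841), and 0.10 without replicate 2 (adjusted p = 0.279). Atp5a1 differed by 0.35 (adjusted p = 0.293, SE 0.161), and 0.13 without replicate 2 (adjusted p = 0.132, SE 0.046).

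The stalk that turns inside the head is made of gamma, delta and epsilon. Atp5c1, for gamma, had 206, 179 and 209 CPM against 191, 202 and 193 CPM, with replicate 2 as the lowest mouse. Atp5e, for epsilon, had 42.9, 104 and 38.7 CPM against 43.6, 40.3 and 38.5 CPM, with replicate 2 as the highest. These subunits of the same stalk thus departed in opposite directions in that mouse, and their log2 fold changes were 0.02 and 0.60 (SE 0.0837 and 0.364). Without replicate 2 the values were 0.09 (SE 0.044) and 0.00 (SE 0.0784). Atp5d, for delta, had a log2 fold change of 0.19 and of 0.06 without it.

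Atp5k, the e subunit by which the synthase forms dimers, had 27.5, 28.7 and 28.0 CPM in Jmjd8-KO and 32.2, 32.0 and 30.7 CPM in WT. The Jmjd8-KO mice, replicate 2 included, were all below the WT mice. The log2 fold change was -0.17 (adjusted p = 0.271, SE 0.0755), and -0.19 without replicate 2 (adjusted p = 0.112, SE 0.0613). The peripheral stalk genes Atp5o, Atp5j, Atp5f1 and Atp5h had log2 fold changes of -0.03, -0.01, 0.10 and 0.54, and of -0.03, -0.06, -0.02 and -0.11 without replicate 2. Atp5s, coupling factor B, had 7.49, 4.33 and 7.03 CPM against 7.9, 8.62 and 7.36 CPM, with overlap between the groups. With all mice it had the lowest log2 fold change of the complex, -0.34 (adjusted p = 0.432, SE 0.221). Without replicate 2 it was at -0.13, and Atp5g1 (-0.24) and Atp5l (-0.21) were lower. Of the 3 genes that encode the same mature c ring protein, Atp5g3 stood at 218 RPKM, Atp5g1 at 2.38 and Atp5g2 at 0.25.

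How reads with several matching places were treated was not given in the sources used here, and it bears on the levels of some members. Many of these genes have processed pseudogenes, intronless copies elsewhere in the genome. On GENCODE M21, 26 of the 94 members shared at least 10% of their coding 50-base stretches with a gene elsewhere, and 59 shared none. For 6 members nearly every stretch was shared: 100% in Ndufb4, Atp5l, Cox7c and Atp5g2, 99.8% in Ndufab1 and 99.7% in Atp5g1. Their means were 6.61, 7.39, 10.6, 0.25, 3.5 and 2.38 RPKM. Levels of these 6 are therefore uncertain. Other members described shared a large part, among them Uqcrb (72.9%), Ndufs5 (72.5%), Ndufa12 (72.0%), Atp5h (67.1%) and Ndufs3 (47.8%). Their counts are uncertain in the shared stretches. Some of the 6 also spread widely between mice, such as Cox7c, with 4.38, 3.37 and 8.89 CPM in Jmjd8-KO and 4.44, 4.61 and 5.14 CPM in WT, where replicate 3 was high and replicate 2 low. Of the 3 copies of Cox7c, 2 were listed, with 31 counts in all 6 mice against 586 for Cox7c.

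A coding 50-base stretch of 3 of these transcripts, 5′ to 3′ and in lower case throughout, shows what a read would have to be assigned by. That of Atp5l, the g subunit of the synthase, was found unchanged in 9 other genes, all processed pseudogenes, that of Ndufb4 in 3 and that of Cox7c in 2.
Atp5l: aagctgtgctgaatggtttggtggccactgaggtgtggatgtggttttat
Ndufb4: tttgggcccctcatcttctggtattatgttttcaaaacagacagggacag
Cox7c: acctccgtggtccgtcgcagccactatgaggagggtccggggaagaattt

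**Figure D5:**
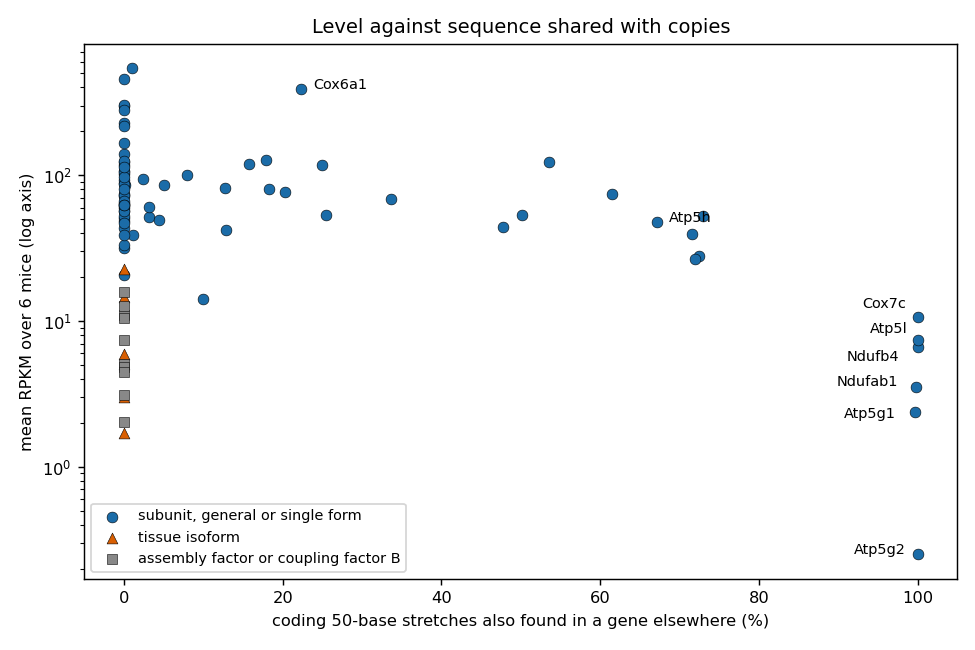
Mean RPKM over the 6 mice (log axis) of each member with a count against the percentage of its coding 50-base stretches that also occur in a gene elsewhere; blue circles are subunits, orange triangles tissue isoforms and grey squares assembly factors or coupling factor B. The 6 members at about 100% lie between 0.25 and 10.6 RPKM, below all other subunits that are not tissue isoforms.

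Of the 94 members, 24 overlap a coding gene on the opposite strand, and their counts are uncertain in the shared bases. They include Ndufs3, Cox4i1, Atp5a1 and Atp5d among the genes described.

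Genes around the complexes were counted from lists chosen with earlier results known. Assembly factors outside the 94 did not pass the test in either direction, with 0 of 4 for complex II, 0 of 6 for complex III, 0 of 20 for complex IV, 0 of 4 for complex V and 0 of 7 tested for complex I. At an unadjusted p under 0.05, which 19.1% of all tested genes reached, there were 2, both of complex IV: Cox10 and Lrpprc. Cox10, which takes part in making heme a, was at -0.24 (log2 fold change, adjusted p = 0.253 by edgeR's quasi-likelihood test). Lrpprc, which stabilises mitochondrial transcripts, was at 0.26 (adjusted p = 0.258 by the same test). They were at -0.26 and 0.15 without Jmjd8-KO replicate 2. Uqcc3, an assembly factor of complex III, had 16.6, 35.0 and 16.1 CPM against 16.9, 14.6 and 15.9 CPM, high in Jmjd8-KO replicate 2 as were Uqcrh and Cox6a1 (0.52 on the log2 scale, and 0.05 without it). Of 23 genes for mobile carriers, ubiquinone synthesis and exchange of ATP, 0 passed and 4 had an unadjusted p under 0.05, near the 19.1% of all tested genes. Among them Coq10b, a ubiquinone-binding protein, had 20.8, 21.3 and 23.8 CPM against 27.7, 29.9 and 25.9 CPM, without overlap (log2 fold change -0.34, adjusted p = 0.132, SE 0.0991).

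Among 16 regulators of mitochondrial biogenesis 1 rose and 0 fell, where 0.789% of all tested genes rose and 1.33% fell. It was Nrip1, a corepressor of oxidative metabolism genes in fat, with 71.1, 69.1 and 62.8 CPM in Jmjd8-KO and 36.5, 49.1 and 41.3 CPM in WT. The groups were well apart, and the log2 fold change was 0.68 (adjusted p = 0.0421, SE 0.12), or 0.66 without Jmjd8-KO replicate 2 (adjusted p = 0.0289). Nrip1 did not pass with WT replicate 1 or WT replicate 3 left out. Esrra, an activator of respiratory genes, had 31.1, 56.9 and 31.8 CPM against 36.2, 32.3 and 31.6 CPM, again high in replicate 2 alone (0.26 on the log2 scale, and -0.09 without it). Ppargc1a, the coactivator, had 3.08–3.48 CPM against 3.63–6.86 CPM (log2 fold change -0.58, adjusted p = 0.29, SE 0.265), and its highest value was in WT replicate 1.

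Both tested uncoupling protein genes passed, in opposite directions, where 2.12% of all tested genes passed. Ucp2, abundant in immune cells as well as fat, had 572, 470 and 608 CPM in Jmjd8-KO and 882, 804 and 897 CPM in WT, and fell (log2 fold change -0.65, adjusted p = 0.0417, SE 0.112). Ucp3, best known from muscle, had 33.9, 32.2 and 31.9 CPM against 23.1, 24.9 and 24.1 CPM, and rose (0.44, adjusted p = 0.0458, SE 0.0804). The groups did not overlap for either gene. Neither passed with WT replicate 1 left out, and no gene at all passed with WT replicate 3 left out. Of the 8 macrophage markers 4 fell, as given for Cox6a2, where 1.33% of all tested genes did. Their part in the value of Ucp2 was not tested. Ucp1, which marks brown and beige fat cells, had 1 to 7 counts per library and was not tested. Atpif1, the inhibitor of ATP synthase, whose symbol the rule does not take, had 36.3, 44.7 and 38.4 CPM against 55, 46.5 and 48.7 CPM. All Jmjd8-KO mice were below all WT mice, with a log2 fold change of -0.33 (adjusted p = 0.172, SE 0.109). Without Jmjd8-KO replicate 2 it passed the test and fell (-0.42, adjusted p = 0.0331, SE 0.084). Of the ribosomal protein genes, 0 of 77 mitochondrial and 0 of 74 cytosolic ones passed, against the same 2.12%, with 3 and 5 at an unadjusted p under 0.05, against 19.1%.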

How the data were processed

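RNA from fat of 6 mice was sequenced on a BGISEQ machine, per the labels' protocols. The authors deposited a table with a raw count and an RPKM value per gene and mouse. STAR was used for alignment to mm10 and featureCounts for counting, per the submitters' processing notes. Their versions, the annotation, the strand setting and the handling of multiply mapped reads were not given in the sources used here. Deposited RPKM values were used to compare levels between genes.

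Raw counts were filtered with filterByExpr (minimum count 10), scaled by TMM and compared by edgeR's quasi-likelihood test (edgeR 4.0.16, R 4.3.3), with genotype as the only term, 3 mice per group and Benjamini-Hochberg adjustment over 14322 genes at 0.05. The SE is the size of the fold change (log2) divided by the root of F. CPM uses TMM-scaled library sizes. The test was checked on simulated counts in which, unlike here, no library stood apart from its group. Alternatives used DESeq2 1.42.0, limma 3.58.1 (voom, and log2(RPKM + 0.1)), size scaling, other filters, a replicate block and left-out mice.

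Annotation was GENCODE M21 (GRCm38), matched by symbol for 93 of 94 members, and promoters were from RefSeq. Members, gene lists and the rule for genes to name in full (members that passed, core subunits, tissue isoforms, and per complex those with the smallest p or the highest and lowest fold change or level) were chosen with earlier results of these data known. Members named beyond the rule (Ndufa12, Ndufa4, Ndufa4l2, Ndufa5, Ndufc2, Cox7c, Atp5f1, Atp5h, Atp5j, Atp5l and Atp5o) and the other genes were picked after their values were seen. Of the members, 1 is counted in the totals and is not reported singly here.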

Additional observations from a re-analysis of the deposited data

How the results depend on the processing

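Cox6a2 kept its direction under all 14 alternatives (log2 fold change -1.38 to -1.16), but was not called without a filter on low counts (-1.26), with the replicate block (-1.27), or without any mouse other than Jmjd8-KO replicate 2; the causes were not tested. Ndufb7, at 0.24 with all mice, was at -0.17 with limma-voom, between -0.20 (Jmjd8-KO replicate 2 left out) and 0.45 with a mouse left out, and -0.22 without that library and WT replicate 1. The number of genes called, 304, became 1039 with DESeq2, 2030 with limma-voom, 156 without the filter, 5 with the replicate block, 2833 without both libraries that stood apart, and 0 to 1351 with a mouse left out. Members called, and members called lower, were 0 without the filter and with the replicate block, 2 without both libraries, and 0 to 1 with a mouse left out. The replicate numbers did not pair the mice, whose deviations correlated at -0.02, -0.03 and 0.01 within numbers. With a mouse left out, median log2 fold changes lay between -0.01 and 0.25 for complex I subunits, -0.12 and 0.03 for its assembly factors, 0.08 and 0.34 for complex II, 0.03 and 0.19 for complex III, -0.04 and 0.22 for complex IV and -0.03 and 0.04 for complex V. Without both libraries they were -0.11 for assembly factors, 0.08 for complex II and -0.05 for complex IV. Of all called genes 62.8% were lower, against 77.4% with size scaling, 51.6% with DESeq2 and 50.8% with limma-voom. No scaling moved the median of all genes by more than 0.08. Cox6a2, at about 1 to 3 CPM, is the called member and has few counts behind it; how far depth and the spread between mice each set the SE of the members was not tested.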
